A study of Mus musculus with 30 samples.

Results

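The fourth of 5 successive releases of small intestinal epithelium, fraction F4, was compared with the second release, fraction F2, in vehicle mice. The comparison took in 6 of the 30 libraries of the series, 3 of F4 and 3 of F2, chosen by their labels. Each of 3 mice gave both fractions, so that F4 and F2 were compared within a mouse. The other 9 vehicle libraries, of F1, F3 and F5, entered the fit for its estimate of the spread and show where F4 and F2 lie among the releases.

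All mice were C57BL/6 females of 8 to 10 weeks, labelled WT for wild type. They were kept for 1 week on the semi-purified diet AIN93G, which contains no ligands of the aryl hydrocarbon receptor. Vehicle mice received corn oil by gavage, and the ICZ mice, used here as other animals with the same fractions, received 10 µg of indolo[3,2b]carbazole (ICZ), an agonist of that receptor. At 12 h the small intestine was taken, its epithelium was loosened by EDTA in steps, and 3′ end libraries (QuantSeq) were sequenced from the total RNA of each fraction. The labels give the order of release but not which level of the crypt-villus axis a fraction holds. Mice 1, 2 and 3 stand for the biological replicates of these numbers.

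The intestinal epithelium is renewed from LGR5-positive stem cells at the crypt base, where they lie between Paneth cells that secrete lysozyme and defensins. Their progeny divide in the crypt, differentiate into absorptive enterocytes and secretory cells, and move up the villus to its tip, where they are shed. EDTA binds the calcium that cell junctions need, and villus cells generally come off before crypts; T lymphocytes that live between epithelial cells come off with them.

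The 6 libraries held 5551886 to 7127127 reads assigned to genes, with 5551886 to 7127127 in F4 and 6175472 to 7009922 in F2. At that depth 1 read was worth 0.125 to 0.190 CPM (reads of a gene scaled to library size, here by TMM), and 18228 to 19912 genes were detected per library. The pan-epithelial markers Epcam, Cdh1, Krt8, Krt18, Krt19 and Vil1 were present in every library. Summed over 9 epithelial genes the level was 5105 to 5219 CPM in F4 and 4649 to 5309 CPM in F2, whereas 20 genes of stroma, muscle and endothelium summed to 11.6 to 14.7 CPM in F4 and 9.56 to 18.6 CPM in F2. No library held a read of Muc2, the gel-forming mucin of goblet cells. Mouse 3 stood apart in genes of B and plasma cells, which summed to 858 CPM in F4 and 497 CPM in F2, against 39.9 to 67.1 CPM in the 4 libraries of the other mice. Outside the compared fractions, the F5 library of mouse 2 stood apart in Alpi, an enterocyte alkaline phosphatase, with 1836 CPM against 504 and 372 CPM in F5 of mice 1 and 3.

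Among the tested members of the gene lists examined, 20 of 26 immediate early genes, 5 of 18 chaperone genes, 5 of 17 genes of the integrated stress response and 4 of 13 Paneth cell genes rose in F4. T cell genes fell in 7 of 23 cases. Among genes of enterocyte digestion and absorption the falls were 2 of 13 for sugar, 2 of 23 for fat and 0 of 20 for peptides. In edgeR's quasi-likelihood test, blocked by mouse, 355 of 13164 genes (2.7%) were called at an adjusted p of 0.05. Of these 210 were higher in F4 (1.6%) and 145 lower (1.1%). The median log2 fold change of all tested genes was 0.01. All 3 F4 values lay above all 3 F2 values for 1636 genes (12.4%) and below them for 1101 genes (8.36%).

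The count of calls rested on mice 2 and 3. Without mouse 1 it was 1247 (4.5% higher and 4.78% lower, 9.28% in all), of which 330 were among the 355. Without mouse 2 it was 15 and without mouse 3 it was 33. DESeq2 called 794 genes (2.78% higher and 3.25% lower, 6.03% in all), and the fit with no mouse block 28 (0.213%). List medians of mouse 1 mostly had the sign of those in the other mice but were smaller, as the plot of gene lists by mouse shows. In the 6 libraries of F4 and F2 alone 1801 of 12161 tested genes passed (7.24% higher and 7.57% lower), with 2 residual degrees of freedom in place of 8, and 339 of the 355 were among them. Without the F5 library of mouse 2, an alternative chosen after the data were seen, 596 genes passed. Of 88 genes that the naming rule took and that passed, 87 did so without mouse 1, 14 without mouse 2 and 22 without mouse 3, and none turned its direction under any alternative. That count without each mouse is given for each larger group of genes.

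**Figure D1:**
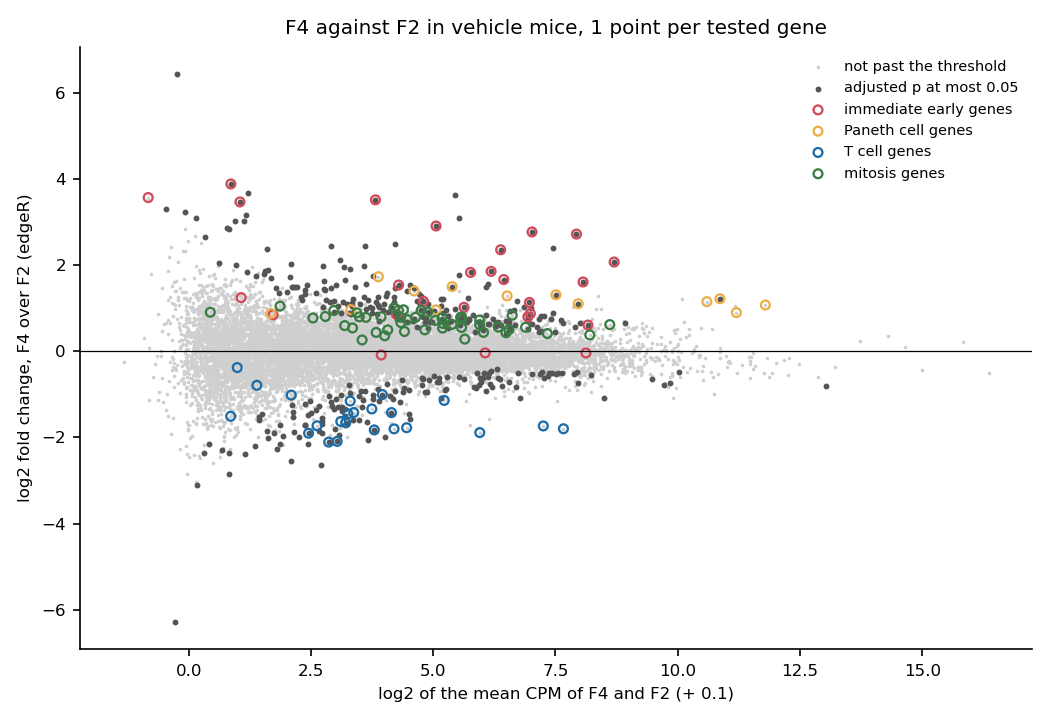
Log2 fold change of F4 over F2 in vehicle mice (y axis, edgeR) against the mean level of both fractions (x axis, log2 of mean CPM + 0.1), 1 point for each of the 13164 tested genes. Dark points passed an adjusted p of 0.05; coloured rings mark 4 gene lists, with immediate early and Paneth cell genes mostly above 0, mitosis genes in a narrow band above 0, and T cell genes below it.

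Immediate early genes, which are transcribed within minutes of a stimulus without new protein synthesis, had the most positive median change of the gene lists examined. Of 26 tested members 20 rose in F4 and 0 fell, against 1.6% of all tested genes higher, and the median log2 fold change was 1.58. The medians were 1.11, 1.56 and 1.5 in mice 1, 2 and 3. Jun, a subunit of the transcription factor AP-1, had 350, 842 and 827 CPM in F4 of mice 1, 2 and 3, against 104, 134 and 237 CPM in F2. Every F4 value of Jun lay above every F2 value, and in each mouse F4 was the higher one. Its log2 fold change was 2.08 ± 0.16 (SE, adjusted p = 9.22e-07), the smallest adjusted p of the comparison. Jun (ENSMUSG00000052684.4) lies on chromosome 4 at 95049034 to 95052222, minus strand, in GRCm38.

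Fos, the partner of Jun in AP-1, had 241, 457 and 504 CPM in F4, against 86.3, 103 and 213 CPM in F2, a log2 fold change of 1.61 ± 0.15 (adjusted p = 7.66e-06). Klf2, a Krüppel-like transcription factor, had 7.80, 33.1 and 36.6 CPM in F4 and 2.56, 0.990 and 2.97 CPM in F2. The Klf2 values did not overlap either, but mouse 1 was well below the other mice in F4, and the log2 fold change was 3.52 ± 0.40 (adjusted p = 0.000242). Egr1, a zinc finger transcription factor, changed by 2.72 ± 0.29 (adjusted p = 0.000736) and Fosb, another AP-1 subunit, by 2.77 ± 0.36 (adjusted p = 0.00389). Dusp1, a phosphatase that shuts off MAP kinases, rose by 2.91 ± 0.30 (adjusted p = 0.000181), Atf3, a stress transcription factor, by 2.36 ± 0.30 (adjusted p = 0.00241), and Btg2, an antiproliferative regulator of mRNA decay, by 1.67 ± 0.16 (adjusted p = 6.24e-06). Ier2 and the small GTPase gene Rhob, both induced by growth factors, rose by 1.83 ± 0.16 and 1.86 ± 0.16, each with an adjusted p of 2.24e-06. Members that did not pass were Fosl2 (-0.04, adjusted p = 0.90), Klf4 (-0.04, adjusted p = 0.92) and Socs3 (-0.08, adjusted p = 0.89), with Myc at 0.85 (adjusted p = 0.30), Csrnp1 at 1.25 (adjusted p = 0.098) and Fosl1 at 3.57 (adjusted p = 0.086). The count of rises was 20 without mouse 1, 10 without mouse 2 and 11 without mouse 3. It was 0 in the fit with no mouse block.

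Other large rises were outside these lists. Hbegf, a membrane-bound ligand of the EGF receptor, had 115, 349 and 418 CPM in F4, against 36.7, 49.3 and 73.2 CPM in F2 (log2 fold change 2.39 ± 0.23, adjusted p = 0.000163). Every F4 value of Hbegf was above every F2 value. Cyr61, a matrix-associated protein controlled by YAP, rose by 2.44 ± 0.39 (adjusted p = 0.00452) and Gdf15, a stress hormone of the TGF-β family, by 1.98 ± 0.32 (adjusted p = 0.00322). Without mouse 2 these calls were lost for Cyr61 and Gdf15 and kept for Hbegf. Ube2s, a ubiquitin-conjugating enzyme of the anaphase-promoting complex, rose by 2.45 ± 0.40 (adjusted p = 0.00329), the RCC1 domain gene Rccd1 by 2.11 ± 0.29 (adjusted p = 0.000485) and the transcript RP23-328F4.2, of no annotated function, by 2.04 ± 0.35 (adjusted p = 0.00368).

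The promoters of these genes, from 250 bases before to 50 after the start, were taken from RefSeq (GRCm38.p6, the build of the counted genome) and searched on both strands for fixed motifs. The cAMP response element TGACGTCA, bound by CREB and ATF proteins, was in 1.79% of all 32851 promoters and 3.21% of the 10970 promoters of tested genes; it was in 2 of the 17 promoters of immediate early genes that rose, those of Btg2 and Dusp1. The CArG box, bound by serum response factor, was in 1.63% of all promoters, 1.4% of those of tested genes and 2 of those 17, Dusp5 and Zfp36. The AP-1 site TGANTCA was in 7.81% of all, 5.33% of those of tested genes and 0 of the 17. Of the 20 immediate early genes that rose, 17 had a promoter to search. Over the 24 promoters of all tested immediate early genes these 3 motifs were in 2, 2 and 1. Heat shock elements were searched as the triplets GAA, TTC and GAA with NN between neighbours. They were in 0.603% of all promoters, 0.51% of those of tested genes and 5 of 19 promoters of tested chaperone genes. Of the 5 chaperone genes that rose, 4 had a promoter to search, and Dnajb1 had more than 1, which gave 5 promoters. Of these 1 held them, that of Hspe1, which encodes a mitochondrial chaperonin subunit. A match is a run of letters, not a shown site, and a promoter with no exact match may still hold a variant of a site. The 4 promoters below show each kind of match in a gene that rose; capitals mark the cAMP response element in Btg2 and Dusp1, 2 adjacent CArG boxes in Dusp5, and 2 overlapping heat shock elements in Hspe1.

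Btg2 promoter, chr1:134079106-134079405, minus strand: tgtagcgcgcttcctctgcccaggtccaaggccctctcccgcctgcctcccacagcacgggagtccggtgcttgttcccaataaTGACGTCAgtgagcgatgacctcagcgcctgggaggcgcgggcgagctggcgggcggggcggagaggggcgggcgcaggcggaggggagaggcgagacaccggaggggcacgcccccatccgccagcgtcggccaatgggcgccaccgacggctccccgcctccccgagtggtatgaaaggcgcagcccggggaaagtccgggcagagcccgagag
Dusp1 promoter, chr17:26508423-26508722, minus strand: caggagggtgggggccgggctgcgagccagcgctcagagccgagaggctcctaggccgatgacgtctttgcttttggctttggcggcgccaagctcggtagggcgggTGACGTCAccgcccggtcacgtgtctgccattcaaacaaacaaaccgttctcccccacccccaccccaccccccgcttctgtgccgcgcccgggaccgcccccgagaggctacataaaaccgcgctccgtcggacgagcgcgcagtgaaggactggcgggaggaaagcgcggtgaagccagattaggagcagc
Dusp5 promoter, chr19:53528895-53529194, plus strand: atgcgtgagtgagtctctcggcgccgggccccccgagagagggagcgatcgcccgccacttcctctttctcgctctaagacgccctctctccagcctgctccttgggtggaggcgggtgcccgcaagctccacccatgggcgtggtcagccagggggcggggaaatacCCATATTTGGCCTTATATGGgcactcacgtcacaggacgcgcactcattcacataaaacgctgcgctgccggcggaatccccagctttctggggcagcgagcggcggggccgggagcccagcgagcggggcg
Hspe1 promoter, chr1:55087898-55088197, plus strand: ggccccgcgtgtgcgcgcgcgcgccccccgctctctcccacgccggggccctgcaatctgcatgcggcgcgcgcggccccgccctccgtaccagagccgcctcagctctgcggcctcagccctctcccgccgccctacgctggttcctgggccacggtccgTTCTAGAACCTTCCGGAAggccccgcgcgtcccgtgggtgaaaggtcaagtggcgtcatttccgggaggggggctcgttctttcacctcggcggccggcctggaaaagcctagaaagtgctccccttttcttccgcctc

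Chaperone genes, whose products refold damaged proteins, gave 5 rises and 0 falls among 18 tested members, against 1.6% of all tested genes higher. The median log2 fold change was 0.42. All 18 had a positive log2 fold change. Hspa1b, an inducible HSP70, had 31.4, 128 and 86.4 CPM in F4, against 2.39, 12.7 and 14.3 CPM in F2. The gene (ENSMUSG00000090877.3) lies on chromosome 17 at 34956436 to 34959238, minus strand. Its log2 fold change was 3.09 ± 0.24 (adjusted p = 2.24e-06) and no F4 value overlapped an F2 value. The neighbouring copy Hspa1a had 24.5, 125 and 92.6 CPM in F4 and 0.171, 9.05 and 11.1 CPM in F2, where mouse 1 had 1 read, and a log2 fold change of 3.63 ± 0.41 (adjusted p = 0.00132), with an adjusted p of 0.10 without mouse 3. These copies are nearly identical in sequence, so the split of reads between them is uncertain. Dnajb1, the HSP40 partner of HSP70, rose by 1.5 ± 0.25 (adjusted p = 0.00879), Hsp90aa1, the stress-inducible HSP90, by 0.88 ± 0.14 (adjusted p = 0.00232) and Hspe1 by 0.68 ± 0.17 (adjusted p = 0.0348). The constitutive HSP70 gene Hspa8 was at 0.56 (adjusted p = 0.051) and the heat shock factor Hsf1 at 0.19 (adjusted p = 0.71). Without mice 1, 2 and 3 in turn 9, 2 and 1 members rose.

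The integrated stress response, in which phosphorylated eIF2α favours translation of ATF4, had a median of 0.63. Among 17 tested genes 5 rose and 0 fell, against 1.6% of all tested genes higher. Ddit4, an inhibitor of mTORC1, had 36.1, 97.0 and 81.2 CPM in F4, against 13.3, 25.7 and 21.7 CPM in F2 (1.77 ± 0.18, adjusted p = 1.12e-05). The groups did not overlap for Ddit4. Ppp1r15a, which directs dephosphorylation of eIF2α, rose by 2.50 ± 0.28 (adjusted p = 0.000146), Ddit3, the transcription factor CHOP, by 1.41 ± 0.18 (adjusted p = 0.000181) and Atf4 itself by 0.66 ± 0.12 (adjusted p = 0.00591). The ATF4 targets Asns (0.63, adjusted p = 0.18) and Trib3 (-0.83, adjusted p = 0.068) did not pass. The rises numbered 6, 2 and 3 without mice 1, 2 and 3. Among 22 tested ER chaperones and genes of the unfolded protein response 1 rose, Dnajb9, an ER cochaperone (0.77 ± 0.17, adjusted p = 0.0183), and the median was 0.07.

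**Figure D2:**
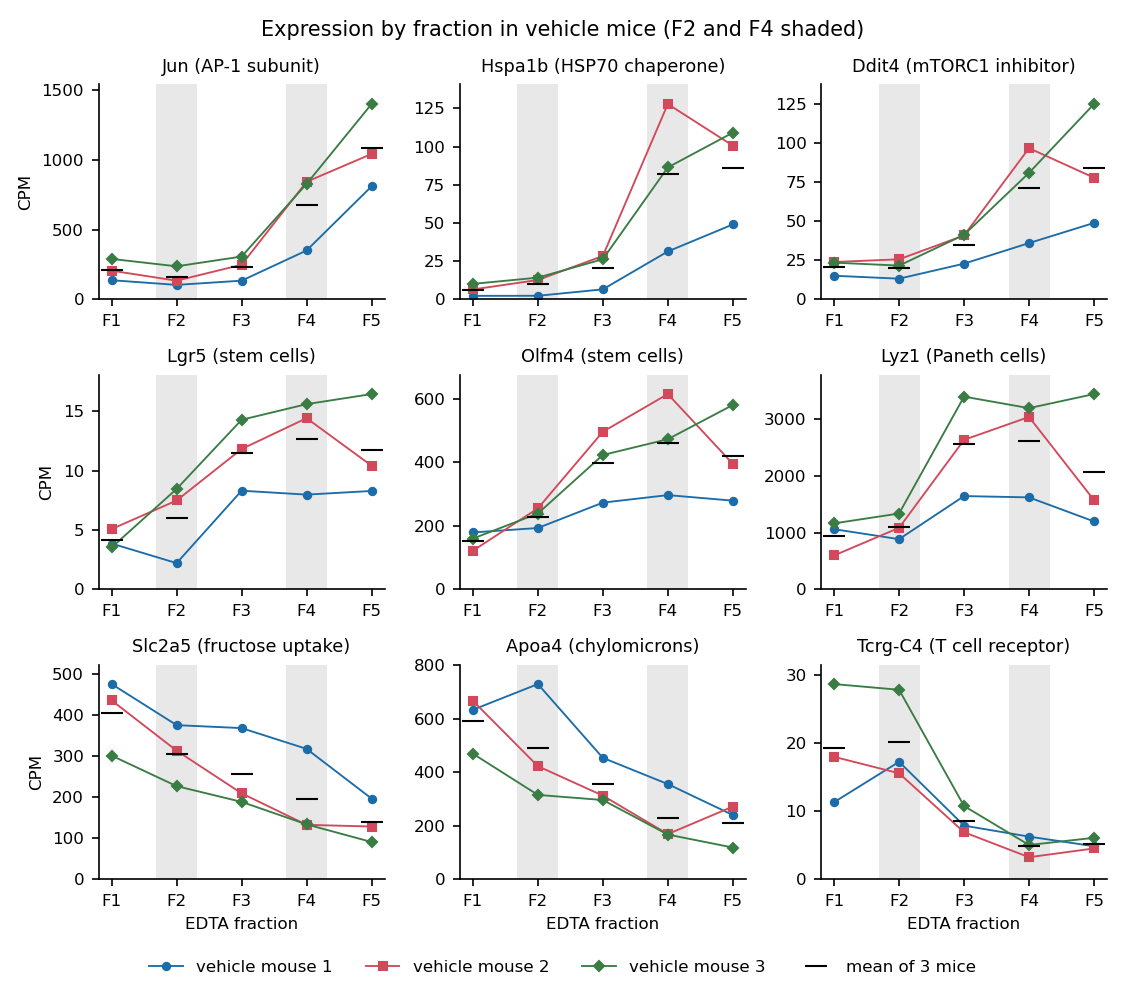
Levels of 9 genes in CPM (y axes, from 0) in fractions F1 to F5 (x axes) of the 3 vehicle mice, 1 line per mouse with the mean as a dash; F2 and F4 are shaded. Jun, Hspa1b and Ddit4 climb between F2 and F3 and, by more CPM, between F3 and F4. Lgr5, Olfm4 and Lyz1 climb between F2 and F3, and Slc2a5, Apoa4 and Tcrg-C4 decline. Mouse 1 is the lowest in F4 for the first 6 genes.

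Of 25 tested stem cell genes of the crypt base 3 rose in F4 and 0 fell, against 1.6% of all tested genes higher. A positive log2 fold change was seen in 24, and the median was 0.84. The medians were 0.37, 0.99 and 0.64 in mice 1, 2 and 3. Lgr5, the R-spondin receptor that marks these cells, had 7.99, 14.4 and 15.6 CPM in F4, against 2.22, 7.49 and 8.47 CPM in F2. In each mouse F4 was higher, but the F4 value of mouse 1 lay within the F2 range; the log2 fold change was 1.09 ± 0.27 (adjusted p = 0.0348). Lgr5 (ENSMUSG00000020140.15) spans chromosome 10 from 115450311 to 115587780, minus strand. Sox9, a transcription factor of crypt cells, had 67.1, 166 and 140 CPM in F4 and 39.1, 80.9 and 71.6 CPM in F2 (0.94 ± 0.20, adjusted p = 0.0243).

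Aqp4, a water channel of the crypt base, rose by 0.92 ± 0.23 (adjusted p = 0.0396). Olfm4, a secreted glycoprotein of stem cells, had 297, 615 and 473 CPM in F4, against 194, 255 and 239 CPM in F2. These values did not overlap, and the log2 fold change of 0.98 ± 0.25 had an adjusted p of 0.059. Smoc2 (0.86, adjusted p = 0.057), Ascl2, a Wnt-driven transcription factor (0.87, adjusted p = 0.094), and Msi1 (1.19, adjusted p = 0.058) also did not pass. In the fit of the 6 libraries alone 15 of 22 tested stem cell genes rose, against 7.24% of all genes tested there. Without mouse 1 the count was 15 of 25 (4.5% of all genes higher), and without mouse 2 or mouse 3 it was 0.

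Wnt targets and regulators, which keep the crypt base in cycle, had a median of 0.50. Among 22 tested genes 4 rose and 0 fell, against 1.6% of all tested genes higher. Besides Lgr5 and Sox9 these were Sox4, an HMG-box transcription factor (1.21 ± 0.25, adjusted p = 0.0155), and Wnt3, the Wnt ligand made by Paneth cells (1.51 ± 0.39, adjusted p = 0.0477). Axin2, a feedback inhibitor of the pathway, was at 0.40 (adjusted p = 0.25). The list gave 7 rises without mouse 1 and 0 without mouse 2 or mouse 3. Of the Notch pathway, which holds progenitors in the absorptive line, Hes1, its transcriptional effector, rose by 0.65 ± 0.15 (adjusted p = 0.0277), 1 of 15 tested genes, and the median was 0.02. Among 17 BMP genes 1 rose, the effector Id1 (0.76 ± 0.12, adjusted p = 0.00171), with a median of 0.01. Efna1, a membrane-bound ligand of Eph receptors, was the 1 of 10 Eph and ephrin genes that rose (0.75 ± 0.19, adjusted p = 0.0474). Each of these single rises stands against the same 1.6% of all tested genes.

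Of 47 tested mitosis genes 3 rose and 0 fell, against 1.6% of all tested genes higher. All 47 had a positive log2 fold change, and the median was 0.72, against 0.01 for all genes. Racgap1, which builds the contractile ring, had 28.1, 40.4 and 37.8 CPM in F4, against 16.0, 20.1 and 18.7 CPM in F2 (0.95 ± 0.22, adjusted p = 0.03). The groups did not overlap for Racgap1. Ccna2, cyclin A2, rose by 0.91 ± 0.22 (adjusted p = 0.0325) and Kif23, a kinesin of the midbody, by 0.75 ± 0.19 (adjusted p = 0.0428). Mki67, the proliferation antigen, stood at 0.41 ± 0.22 (adjusted p = 0.303), with 150, 199 and 203 CPM in F4 and 127, 142 and 145 CPM in F2.

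DNA replication genes gave 3 rises among 38 tested (median 0.58), which were Slbp, the histone stem-loop binding protein (1.1 ± 0.26, adjusted p = 0.0282), Tyms, thymidylate synthase (0.77 ± 0.20, adjusted p = 0.0481), and Mcm6, a helicase subunit (0.71 ± 0.19, adjusted p = 0.0499). The E2F site TTTCCCGC was in 1.07% of all promoters, 1.99% of those of tested genes and 6 of 37 promoters of the tested replication genes. It was in 0 of the 3 promoters of the replication genes that rose. Ribosome biogenesis gave 4 rises of 42 (median 0.52), including Nop56 (0.97 ± 0.22, adjusted p = 0.0282) and Nop58 (0.57 ± 0.14, adjusted p = 0.0309), core proteins of box C/D snoRNPs, and Gnl3, the nucleolar GTPase nucleostemin (0.86 ± 0.19, adjusted p = 0.0253). Cytosolic ribosomal proteins gave 4 rises of 50 (median 0.52), led by Rpl23 (0.68 ± 0.15, adjusted p = 0.0206) and Rps24 (0.63 ± 0.14, adjusted p = 0.0212), though near-identical pseudogenes make their counts uncertain. None of these 4 lists held a gene that fell, and 1.6% of all tested genes rose. In the 6 libraries alone 36 of 46 mitosis, 20 of 38 replication, 18 of 42 ribosome biogenesis and 27 of 48 ribosomal protein genes rose. In that fit 7.24% of all tested genes were higher. Without mouse 1 the counts were 26, 15, 15 and 22, against 4.5% of all genes higher. Without mouse 2 or mouse 3 all 4 counts were 0.

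**Figure D3:**
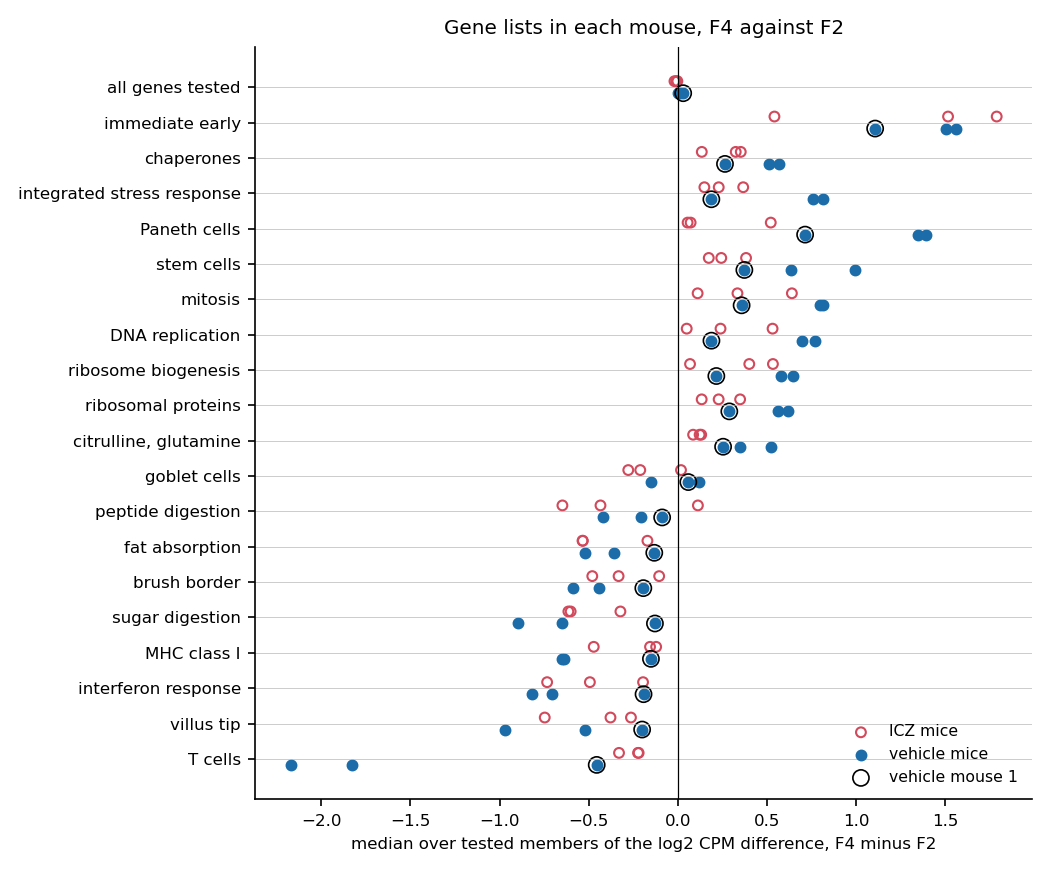
Median over the tested members of each gene list of the log2 CPM difference between F4 and F2 (x axis), for each of the 3 ICZ mice (open circles) and the 3 vehicle mice (filled circles, vehicle mouse 1 ringed). Immediate early genes lie to the right and T cell genes to the left in all 3 vehicle mice, with T cell medians of -0.46, -1.82 and -2.17 in vehicle mice 1, 2 and 3, while all genes lie near 0.

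Paneth cell genes were higher in F4 in all 3 mice for all 13 tested members, and 4 rose past the threshold while 0 fell. Of all tested genes 25% were higher in all 3 mice and 1.6% rose past the threshold. The median log2 fold change was 1.15, with 0.71, 1.35 and 1.39 in mice 1, 2 and 3. Lyz1, lysozyme, had 1624, 3042 and 3198 CPM in F4, against 887, 1087 and 1339 CPM in F2. Its groups did not overlap, and the log2 fold change was 1.22 ± 0.28 (adjusted p = 0.04). Defa26, an alpha-defensin, had 45.6, 60.2 and 79.8 CPM in F4 and 17.6, 21.1 and 26.1 CPM in F2 (1.5 ± 0.23, adjusted p = 0.0033). Ang4, a microbicidal angiogenin, rose by 1.11 ± 0.23 (adjusted p = 0.0243) and Mptx2, a pentraxin, by 1.31 ± 0.30 (adjusted p = 0.0498). The defensins have close paralogues, so that reads can be split among them. Mmp7, the protease that activates defensins, was at 1.29 (adjusted p = 0.054). The 14 genes of the list found in the table summed to 8892, 15329 and 16622 CPM in F4 of mice 1, 2 and 3, against 5492, 6048 and 7365 CPM in F2. Fewer cells of a type and less RNA per cell cannot be told apart in such bulk fractions, here or for any other cell type. Without mice 1, 2 and 3 in turn 9, 0 and 1 members rose.

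In the other secretory lineages few genes passed. Of 19 tested goblet cell genes 0 passed, with a median of 0.05 and with 10 positive and 9 negative log2 fold changes. The 20 genes of the list summed to 8732, 9025 and 8549 CPM in F4 of mice 1, 2 and 3, against 9771, 12402 and 13397 CPM in F2. Zg16, a lectin of the mucus layer, had 3176, 3007 and 2832 CPM in F4 and 3742, 4524 and 5269 CPM in F2. Those groups did not overlap, and Zg16 was at -0.59 ± 0.20 (adjusted p = 0.0966). Fcgbp, a mucus protein that binds Muc2, was at -0.47 ± 0.15 (adjusted p = 0.076), while Spink4, a protease inhibitor of goblet cells, was at 0.55 (adjusted p = 0.074). Among 26 enteroendocrine genes 2 rose, against 1.6% of all tested genes higher, with a median of 0.04. Gcg, which encodes glucagon-like peptides, had 66.0, 77.0 and 43.0 CPM in F4, against 43.7, 41.4 and 21.1 CPM in F2 (0.84 ± 0.15, adjusted p = 0.006), with the F4 value of mouse 3 inside the F2 range, and Tac1, the precursor of substance P, rose by 1.05 ± 0.25 (adjusted p = 0.03). In contrast Gip was at -0.36 (adjusted p = 0.14), Nts at -0.34 (adjusted p = 0.44) and Sct at -0.19 (adjusted p = 0.66), all hormones of the same class of cells. Of 15 tuft cell genes 0 passed (median -0.25, 13 negative), with Ltc4s, the leukotriene C4 synthase, at -0.27 (adjusted p = 0.521).

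Of 13 tested genes of sugar digestion and uptake 2 fell in F4 and 0 rose, against 1.1% of all tested genes lower. A negative log2 fold change was seen in 12, and the median was -0.57. Slc2a5, the fructose transporter, had 318, 133 and 134 CPM in F4, against 376, 313 and 227 CPM in F2. In each mouse F4 was lower, by little in mouse 1, whose F4 value lay above the F2 values of both other mice. The log2 fold change was -0.73 ± 0.16 (adjusted p = 0.0183). Treh, the brush border trehalase, had 104, 55.8 and 65.1 CPM in F4 and 146, 132 and 114 CPM in F2, with no overlap (-0.83 ± 0.18, adjusted p = 0.0259). Sis, sucrase-isomaltase, was at -0.51 (adjusted p = 0.11), and Slc5a1, the sodium-glucose cotransporter, likewise at -0.51 (adjusted p = 0.11). In mice 1, 2 and 3 the list's medians were -0.13, -0.89 and -0.65. Without mouse 1 12 members fell, against 4.78% of all genes lower, and without mouse 2 or mouse 3 0 did.

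Fat absorption and chylomicron assembly gave 2 falls of 23 tested genes, against 1.1% of all tested genes lower, with a median of -0.35. Apoa4, an apolipoprotein of chylomicrons, had 356, 170 and 168 CPM in F4, against 730, 423 and 316 CPM in F2. F4 was lower in each mouse, although the F4 value of mouse 1 lay within the F2 range, and the log2 fold change was -1.08 ± 0.22 (adjusted p = 0.0228). Apoa1, the main apolipoprotein of HDL, fell by 0.80 on the log2 scale (SE 0.21, adjusted p = 0.0487). Fabp1, a fatty acid binding protein, had 4659, 2766 and 2357 CPM in F4 and 5113, 5012 and 3376 CPM in F2. Those values overlap through mouse 1, and Fabp1 at -0.51 ± 0.17 did not pass (adjusted p = 0.0886). The falls numbered 12 without mouse 1, against 4.78% of all genes lower, and 0 without mouse 2 or mouse 3.

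Brush border structure gave 3 falls of 23 tested genes, against 1.1% of all tested genes lower, with a median of -0.37. Krt20, a keratin of differentiated enterocytes, had 928, 487 and 470 CPM in F4 and 1365, 950 and 853 CPM in F2 (-0.79 ± 0.16, adjusted p = 0.0138). Its F4 value in mouse 1 lay within the F2 range. Pdzk1, a scaffold of apical transporters, changed by -1.28 ± 0.32 (adjusted p = 0.0477) and Pls1, an actin bundler of microvilli, by -0.64 ± 0.16 (adjusted p = 0.0464). Without mouse 1 10 members fell, against 4.78% of all genes lower, and 1 rose. Without mouse 2 or mouse 3 0 passed.

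Villus tip genes had a median of -0.74 with 1 fall, Apoa4, among 14 tested, against 1.1% of all tested genes lower. Ada, the adenosine deaminase of the villus tip, had 86.5, 35.2 and 27.8 CPM in F4, against 172, 70.8 and 67.3 CPM in F2. In every mouse F4 was the lower, yet its change of -1.09 ± 0.73 did not pass (adjusted p = 0.423, against 3.97e-06 in the 6 libraries alone). Across the other fractions Ada varied widely, with 68.5, 292 and 27.1 CPM in F5 of mice 1, 2 and 3. Alpi had 697, 539 and 700 CPM in F4 and 665, 1008 and 1218 CPM in F2; it was lower in mice 2 and 3 but not in mouse 1 (-0.53 ± 0.56, adjusted p = 0.634).

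Among the remaining genes of enterocyte function few passed. Of all tested genes 1.1% were lower and 1.6% higher. Slc9a3, the apical sodium-proton exchanger, fell as 1 of 17 genes of ion absorption (-0.62 ± 0.16, adjusted p = 0.0452), and Gclm, a subunit of the enzyme that makes glutathione's precursor, as 1 of 16 NRF2 targets (-0.50 ± 0.12, adjusted p = 0.0322). Peptide digestion, fatty acid oxidation, bile acid transport, xenobiotic metabolism and retinoid handling had medians of -0.26, -0.06, -0.27, -0.35 and -0.11, with 0 of 20, 19, 8, 30 and 14 tested genes past the threshold. Lower villus antimicrobial genes had a median of 0.13 and 0 calls among 11, with Reg3g, a bactericidal lectin, at 0.28 ± 0.13 (adjusted p = 0.216). Elf3, an epithelial ETS factor, rose by 0.47 on the log2 scale (adjusted p = 0.0275), 1 of 2 calls among 25 transcription factors of this lineage.

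Tfrc, the transferrin receptor that feeds iron to dividing cells, had 126, 169 and 217 CPM in F4, against 81.9, 81.0 and 89.6 CPM in F2, with no overlap (1.00 ± 0.18, adjusted p = 0.00604). It was the 1 call among 10 iron genes, 7 of which had a negative log2 fold change, and the list's median was -0.32. Of all tested genes 1.6% were higher. Citrulline and glutamine metabolism gave 2 rises of 14 genes, Cps1, the carbamoyl phosphate synthase (0.55 ± 0.14, adjusted p = 0.0396), and Glul, glutamine synthetase (0.61 ± 0.16, adjusted p = 0.0484). Crypt fluid secretion gave 1 rise of 12, that of Aqp4. Cldn23, a claudin, rose as 1 of 16 tight junction genes (1.14 ± 0.21, adjusted p = 0.00579), and Timp3, an inhibitor of matrix proteases, as 1 of 20 matrix and adhesion genes (3.02 ± 0.60, adjusted p = 0.0121), with 1.52 to 5.20 CPM in F4 and 0.141 to 1.04 CPM in F2. Respiratory chain subunits of the nucleus (47 tested), the mitochondrial genome (7), cholesterol synthesis (25), AHR genes (4) and the circadian clock (17) gave 0 calls, with medians of 0.03, 0.11, 0.16, -0.13 and -0.20.

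T cell genes had the most negative median of the gene lists examined. Of 23 tested genes of intraepithelial T cells 7 fell in F4 and 0 rose, against 1.1% of all tested genes lower, all 23 had a negative log2 fold change, and the median was -1.63. Cd3g, a subunit of the T cell receptor complex, had 4.75, 2.38 and 2.23 CPM in F4, against 8.02, 11.9 and 19.3 CPM in F2, with no overlap (-2.09 ± 0.45, adjusted p = 0.0258). Lck, the kinase of that receptor, had 4.95, 4.77 and 3.12 CPM in F4 and 10.6, 10.9 and 20.7 CPM in F2 (-1.66 ± 0.33, adjusted p = 0.0124). In both genes mouse 3 was the highest in F2. The list summed to 422, 180 and 303 CPM in F4 of mice 1, 2 and 3, against 648, 795 and 1486 CPM in F2.

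The other large falls included further lymphocyte genes. Tcrg-C4, a constant segment of the gamma T cell receptor, had 6.28, 3.26 and 5.05 CPM in F4, against 17.2, 15.6 and 27.8 CPM in F2 (-2.05 ± 0.25, adjusted p = 0.000181). Its groups lay far apart. The segment (ENSMUSG00000076757.9) lies on chromosome 13 at 19344558 to 19352756, plus strand. The gamma variable segments Trgv2 (-2.63 ± 0.55, adjusted p = 0.0237) and Tcrg-V1 (-2.14 ± 0.47, adjusted p = 0.0206) fell as well, although such segments resemble each other in sequence and their counts are uncertain. Cd160, a receptor of intraepithelial lymphocytes, fell by 2.11 on the log2 scale (adjusted p = 0.0477), Itgb7, the beta chain of the gut homing integrin, by 1.90 (adjusted p = 0.0165), and Ikzf2, the transcription factor Helios, by 1.98 (adjusted p = 0.00591). Il21r, the receptor of interleukin 21, had a log2 fold change of -1.89 (adjusted p = 0.0243). Cyth4, an exchange factor for ARF GTPases (-2.55), Cd200r2, of the CD200 receptor family (-2.27), Padi2, a peptidylarginine deiminase (-2.14), Gimap8, a GTPase of lymphocytes (-1.98), Ms4a6b (-1.97), Rdx, the membrane-actin linker radixin (-1.93), and Cyfip2, of the WAVE complex (-1.90), completed the 15 largest falls among named genes whose fractions did not overlap and whose F4 or F2 mean reached 5 CPM, with adjusted p between 0.00242 and 0.0487.

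The T cell medians differed by mouse, at -0.46, -1.82 and -2.17 in mice 1, 2 and 3. Without mouse 1 20 members fell, without mouse 2 0 and without mouse 3 1. In the 6 libraries alone 17 of 22 did, against 7.57% of all genes. Macrophage and dendritic cell genes gave 0 calls among 13 (median -0.27), B and plasma cell genes 0 among 5 (median 0.34) and the stromal list 0 among 2 (median 0.13).

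Interferon response genes had a median of -0.64, with 25 of 26 log2 fold changes negative, 1 fall and 0 rises. Of all tested genes 1.1% were lower. The fall was that of Usp18, a negative regulator of interferon signalling, with 7.61, 3.14 and 3.72 CPM in F4, against 18.9, 10.5 and 10.4 CPM in F2 (-1.49 ± 0.36, adjusted p = 0.04). MHC class I genes had a median of -0.45, all 16 negative and 0 past the threshold, with H2-K1 at -0.59 (adjusted p = 0.0649) and B2m, the light chain, at -0.56 (adjusted p = 0.103). Without mouse 1 8 interferon and 7 class I genes fell, against 4.78% of all genes lower. Without mouse 2 or mouse 3 0 of either list did. T cells express class I genes too, and the part of the lower T cell genes in these values was not tested. MHC class II genes gave 0 calls among 7 (median -0.12).

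F3, the release between F2 and F4, was placed relative to both. On a scale with F2 at 0 and F4 at 1, the median position of F3 over the 355 called genes was 0.44. Of these genes 332 had F3 between F2 and F4. They were chosen for their difference between F4 and F2, so F3 tends to lie between by that choice alone. The share over all tested genes is not given, and the count is no test of a gradual change. The position was 0.58, 0.39 and 0.43 in mice 1, 2 and 3. For the 20 immediate early genes that rose it was 0.17, and all 20 were nearer to F2; for the 5 genes of the integrated stress response it was 0.24. For the 4 Paneth cell genes it was 0.89, for the 3 stem cell genes 0.75 and for the 7 T cell genes 0.59. Called members of other lists, 3 to 5 genes in each, lay at 0.39 for replication, 0.43 for brush border, 0.44 for ribosomal proteins and 0.47 for chaperones. Those of mitosis and of ribosome biogenesis each lay at 0.63. In mice 1, 2 and 3 the position was 1.01, 0.36 and 0.39 for replication and 0.75, 0.34 and 0.35 for ribosomal proteins. Over all tested members, replication had median log2 fold changes of 0.38 for F3 over F2 and 0.19 for F4 over F3. Ribosomal proteins had 0.38 and 0.14, brush border -0.18 and -0.21, and chaperones 0.14 and 0.21. For the 180 genes that rose outside the immediate early, chaperone and integrated stress response lists it was 0.44.

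The levels of single genes show changes in either step. Over F2, F3, F4 and F5 Jun averaged 158 ± 69.7, 230 ± 87.8, 673 ± 280 and 1082 ± 297 CPM (SD, n = 3 mice). Over F2, F3 and F4 Lyz1 averaged 1104 ± 227, 2562 ± 879 and 2621 ± 867 CPM. Lgr5 took the values 6.06 ± 3.36, 11.5 ± 3.00 and 12.7 ± 4.10 CPM, and Tcrg-C4 the values 20.2 ± 6.63, 8.52 ± 2.00 and 4.86 ± 1.52 CPM, over the same releases. Jun thus changed mostly in the later step, and the means of the other 3 genes in the earlier one.

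Tests of the single steps were added after the values were seen. In F4 against F3 54 of 13164 genes passed (0.41%), all of them higher in F4, and 17 of the 54 were immediate early genes, among them Jun (1.54, adjusted p = 7.3e-05) and Klf2 (3.19, adjusted p = 0.00052). In F3 against F2 0 genes passed (0%), with Lyz1 at 1.17 (adjusted p = 0.36) and Tcrg-C4 at -1.23 (adjusted p = 0.16). The steps share the F3 libraries and whether a gene's 2 changes differ was not tested. Without mouse 1 F3 against F2 gave 242 calls and F4 against F3 gave 257; without mouse 2 and without mouse 3 they gave 0 and 13 each.

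**Figure D4:**
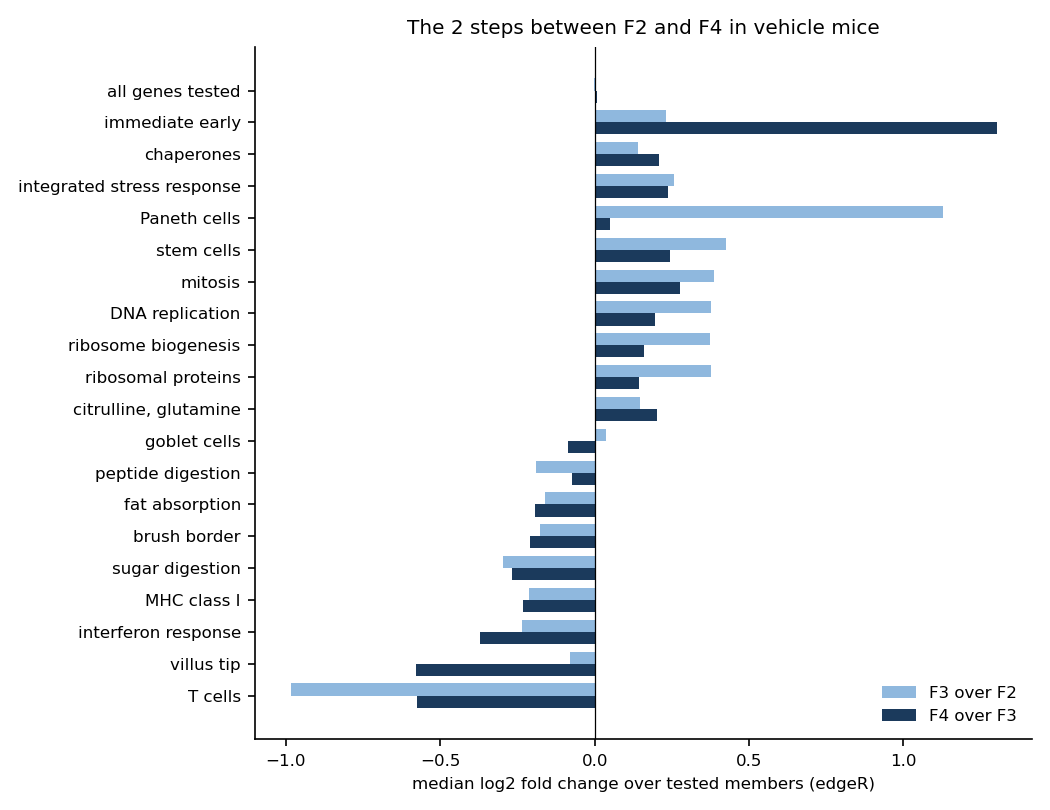
Median log2 fold change over the tested members of each gene list (x axis, edgeR) for F3 over F2 (light bars) and F4 over F3 (dark bars) in vehicle mice. Immediate early genes have medians of 0.23 and 1.30 in the 2 steps, and Paneth cell genes 1.13 and 0.05.

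The same contrast was made in the 3 ICZ mice, which share no library with the vehicle mice. There 217 of 13328 tested genes passed (1.63%), 73 higher in F4 (0.548%) and 144 lower (1.08%). Of the 355 genes called in vehicle mice, 351 were tested in ICZ mice, 314 of which (89.5%) had a log2 fold change of the same sign there, and 65 passed in the same direction. These 65 are 18.3% of the vehicle calls and 30.0% of the ICZ calls. By direction, 49 of the 73 higher ICZ calls (67.1%) and 16 of the 144 lower ones (11.1%) were among them. Without ICZ mouse 2 the ICZ count was 40 and without ICZ mouse 3 it was 7. The genes higher in vehicle mice had a median log2 fold change of 0.55 in ICZ mice and 1.1 in vehicle mice, and those lower in vehicle mice had -0.35 and -1.08. Since these genes were chosen for their change in vehicle mice, these medians are no comparison of the treatments.

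In ICZ mice 9 of 26 tested immediate early genes passed, with a median of 1.38. Hspa1b had 15.8, 66.3 and 53.4 CPM in F4 of ICZ mice 1, 2 and 3, against 0.892, 5.4 and 8.06 CPM in F2 (3.23, adjusted p = 2.74e-06). Klf2 had 4.46, 30.5 and 29.8 CPM in F4 and 0.535, 0.771 and 3.30 CPM in F2 (3.81, adjusted p = 0.000358). In neither gene did the ICZ groups overlap, and ICZ mouse 1 was the lowest in F4 of both. Nr4a1, an orphan nuclear receptor, at 4.45 (adjusted p = 0.0101), Timp3 at 2.94 (adjusted p = 0.00579) and Hspa1a at 3.79 (adjusted p = 4.86e-05) were the others of the 5 genes with the largest mean change among those called in both. The Nr4a1 change rests on few reads, with 0.594, 3.18 and 8.48 CPM in F4 of ICZ mice and 0.178, 0.308 and 0 CPM in F2. In F2 of vehicle mice 1, 2 and 3 Nr4a1 had 2, 0 and 4 reads and Timp3 had 1, 1 and 7. Slc2a5 fell in ICZ mice as well (-0.90, adjusted p = 0.0172).

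In ICZ mice the Paneth list had a median of 0.27 with 0 of 13 past the threshold, and the T cell list -0.33 with 0 of 23. Lyz1 had 1492, 2620 and 3177 CPM in F4 of ICZ mice and 984, 2309 and 3221 CPM in F2, which overlap (0.27, adjusted p = 0.698). Tcrg-C4 had 6.84, 5.56 and 2.90 CPM in F4 and 8.92, 10.8 and 7.92 CPM in F2 (-0.84, adjusted p = 0.448). Those F2 values lay below all 3 F2 values of vehicle mice. The difference of the F4 to F2 change between ICZ and vehicle mice, tested in all 29 libraries, passed for 0 of 14067 genes (0%), with 0 also by DESeq2, 967 genes at an unadjusted p under 0.05 and a smallest adjusted p of 0.631. That p was also the adjusted p of Defa26 and Cd3g.

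**Figure D5:**
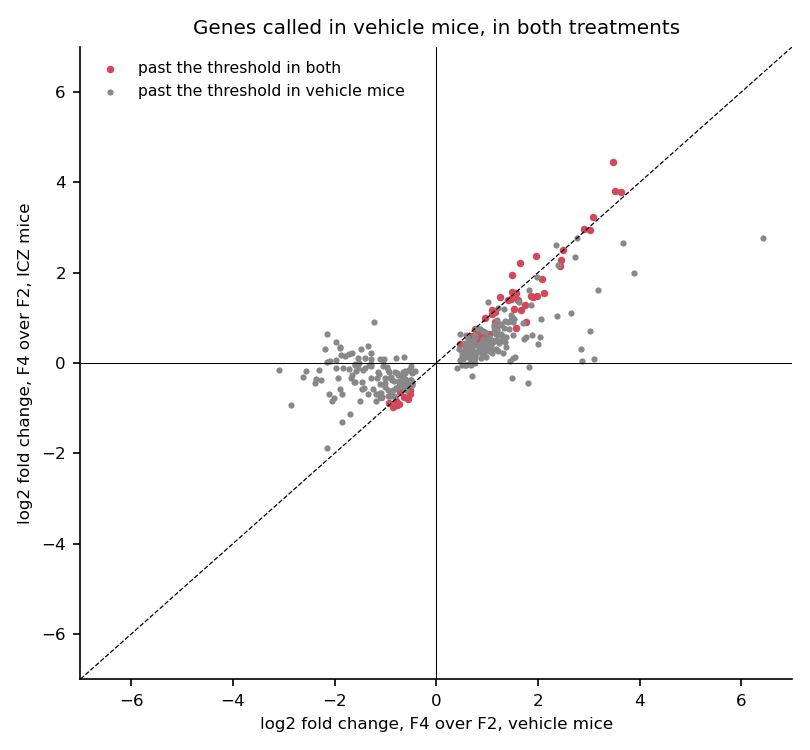
Log2 fold change of F4 over F2 in ICZ mice (y axis) against that in vehicle mice (x axis, edgeR in both) for the 351 genes called in vehicle mice and tested in both; red points passed an adjusted p of 0.05 in both, and the dashed line marks equal changes. The genes lower in vehicle mice have a median of -0.35 in ICZ mice and, having been chosen on the x axis, lie closer to 0 on the y axis.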

How the data were processed

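Reads of 3′ end RNA libraries were counted per gene by the authors, who deposited 1 table of whole-number read counts that were not normalized, with 54146 genes. The submitters' processing notes name FastQC 0.11.2, BWA 0.7.17-r1188, SAMtools 1.10, HTSeq 0.11.2 and the build GRCm38.p6 (mm10). Not given in the sources used here are the strand setting, any molecular identifiers and the annotation release. Therefore reads of overlapping or antisense genes cannot be told apart, and counting limits cover counting error only. Closing lines that name no gene stayed out of all sizes and tests; in the 6 libraries 55.2% to 60.9% of counted reads fell in genes, 10.8% to 14.7% had no feature, 19.3% to 24.5% too low a mapping quality, 3.74% to 5.10% were ambiguous and 2.73% to 7.21% unaligned. Gene positions come from GENCODE M21, which holds 52480 of the identifiers with their version.

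Groups come from the labels. F1 of ICZ replicate 3 was not analysed here, and the 1 sample labelled undetermined is in no group. Replicate libraries of F4 and F2 differed beyond sampling noise (chi-square per degree of freedom 8.03 to 21.9). Fractions of a mouse come from 1 animal. Deviations of F4 and F2 from their means correlated at 0.256, 0.240 and 0.292 within mice and at -0.185 to -0.081 between mice. Such deviations cancel out over the mice, so positive values within mice force negative ones between mice on average.

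F4 was compared with F2 in all 15 vehicle libraries with edgeR 4.0.16 in R 4.3.3: filterByExpr, TMM, robust quasi-likelihood F test, fraction and mouse as terms, Benjamini-Hochberg adjustment over all genes tested, threshold 0.05. ICZ mice were treated likewise (14 libraries), and the difference was tested in 29. The SE is the size of the log2 fold change divided by the root of its F statistic. CPM use TMM library sizes; mouse medians use log2 CPM with a prior count of 2. The steps were tested on simulated counts. Alternatives were DESeq2 1.42.0, limma 3.58.1 (voom), other size factors, no filter, no block, other sets of libraries and leaving out each mouse.

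The members, lists and rule for naming genes were chosen with earlier results of these data known. The rule took up to 15 genes per direction of largest change with an adjusted p of at most 0.05, a mean of at least 5 CPM and no overlap, up to 4 called members of smallest p per list (or, with none, 2 of the highest mean CPM), fixed marker genes, and up to 5 genes called in both treatments; a few genes it took are not reported here. Other genes given with values, such as Dusp5, Hspe1 and Zfp36, were chosen after their values were seen. Lists share some genes, such as Apoa4, Lgr5, Sox9 and Aqp4.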

Additional observations from a re-analysis of the deposited data

Results flagged for a closer look

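A few of the genes named here moved in opposite directions between F4 and F2 in every ICZ mouse and every vehicle mouse. With so few mice such a split can arise by chance, and its share over all tested genes is not given. Padi2 had a mean log2 CPM difference of 0.53 in ICZ mice and -2.24 in vehicle mice, 2.77 apart. Ms4a6b had 0.41 in ICZ mice and -1.76 in vehicle mice, 2.17 apart. Both rest on few reads, in F4 of vehicle mice 1, 2 and 3 with 23, 12 and 3 for Padi2 and 10, 7 and 13 for Ms4a6b. Reg3g had -0.29 in ICZ mice and 0.28 in vehicle mice, -0.57 apart. Clock, a core clock transcription factor, had 0.06 in ICZ mice and -0.14 in vehicle mice, 0.20 apart. The opposite directions themselves were not tested. In edgeR's test of the difference over all genes none of the 4 passed, with an adjusted p of 0.631 for Padi2, Ms4a6b and Reg3g and 0.77 for Clock.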

How the results depend on the processing

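The count of 355 genes in vehicle mice (210 higher and 145 lower in F4) depended on the fit. DESeq2 gave 794 (366 higher, 428 lower), no filter on low counts 1429 (700, 729), the 6 libraries alone 1801 (881, 920) and all 29 libraries 564 (323, 241). With no replicate block it was 28 (19, 9). Leaving out 1 mouse gave 15 to 1247 (15 to 605 higher, 0 to 642 lower), the highest without mouse 1. Of alternatives chosen after seeing the data, leaving out F5 gave 935 (447, 488), leaving out F1 1131 (632, 499), leaving out the F5 library of mouse 2 596 (329 lower), and F2 to F4 alone 1959 (949, 1010). In ICZ mice the 217 calls (73, 144) were 567 with no filter (245, 322), 3 with no replicate block (2, 1), 342 by DESeq2 (238 lower) and 7 to 320 leaving out 1 ICZ mouse (5 to 196 higher, 2 to 124 lower). For the difference between treatments, no filter gave 94 (55, 39) and the other alternatives run 0. F3 against F2 gave 0 to 242 calls without 1 mouse (0 to 68 higher, 0 to 174 lower), and F4 against F3, at 54, gave 13 to 257 (12 to 188 higher, 0 to 69 lower). The position of F3 over called genes was 0.41 to 0.48 without 1 mouse. Limma voom and RLE size factors gave 351 and 385 calls. The causes of these differences were not tested. No named gene reversed, and 7 of 88 named calls held with no replicate block. Leaving out 1 mouse leaves 2 pairs. At this depth 3 reads are 0.376 to 0.571 CPM, so low T cell genes rest on few reads, such as Tcrg-V1 with 2 to 12 in F4.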
